A study of Caenorhabditis elegans with 6 samples.

Results

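Mitochondria carry their own ribosomes, which translate the few proteins encoded in mitochondrial DNA (mtDNA). The ribosomal RNAs of these particles come from mtDNA, whereas all of their proteins are encoded in the nucleus, made in the cytosol and imported. In C. elegans, genes named mrpl- encode proteins of the large subunit and genes named mrps- those of the small subunit. Lowering some of them by RNAi, mrps-5 among others, is known to induce the mitochondrial unfolded protein response and to lengthen life in worms.

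The mitochondrial ribosomal protein genes described here were chosen by symbol, as every gene of the deposited table whose name is mrpl- or mrps- followed by a number. The annotation holds 70 such genes, and 69 of them are among the 31180 genes of the table, with 40 mrpl- and 29 mrps- genes. The remaining gene, mrpl-42 (WBGene00303009), has no row of its own. The annotation places it on the minus strand of chromosome IV from 9093563 to 9094456, where it overlaps lpl-1 on the same strand, a gene with a row. RNA had been sequenced from whole N2 wild-type animals at the last larval stage (L4), with 3 CTRL libraries from worms at 20°C without treatment and 3 HS libraries from worms given 35°C for 4 h, after removal of ribosomal RNA and with a stranded protocol. No transgene or mutation separates the groups, and all tissues of the animal are mixed in each library.

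The value used for each gene is the authors' mean normalized count (baseMean), in which counts were divided by a scaling factor for each library and averaged over all 6 libraries. CTRL and HS are pooled in this mean. Because a single pooled mean per gene was used, HS was not compared with CTRL, no spread between replicates is given, and differences between genes were not tested. Scaling factors could be read from genes with very few reads, because all 7039 values under 1 were sums of whole reads of 6 libraries within 1e-08. The 6 factors ran from 0.536 to 1.47, and which library each one belongs to was not inferred. They bound the standard error from counting alone at 0.693% to 3.24% of the mean for the 69 genes, where the spread between animals and libraries is not included. In whole animals, fewer cells that use a gene and less RNA per cell cannot be told apart. All 16 marker genes checked for muscle, pharynx, intestine, epidermis, neurons, germ line and sperm have a row in the table, from 67.3 for unc-119 in neurons to 97339 for unc-54 in body wall muscle.

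Mitochondrial ribosomal protein genes were moderately abundant, and their levels lay close together. Their mean normalized counts ran from 295.8 for mrps-25 to 6482 for mrpl-44, with a median of 745.9 and quartiles of 501.2 and 1055.4. All 69 exceeded the median of the 18768 protein-coding genes (PCGs) in the table, which was 122.3. The median member stood at percentile 78.9 of PCGs and the lowest, mrps-25, at percentile 63.1. Summed over the 69 genes, the mean normalized counts came to 0.389% of the PCG total. Despite the removal of ribosomal RNA, its genes still held 46.9% of the summed mean normalized counts of all genes, and PCGs held 47.5%.

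Longer genes had proportionally more reads. Spearman's rho between coding length and mean normalized count was 0.80 across the 69 genes, as a description of genes that share the same libraries, against 0.36 across all PCGs. Levels of different genes are therefore given below per kilobase (kb) of coding sequence, except where counts are named without this division. After this division, rho with coding length was -0.05. The genes are short, with a median coding length of 615 bp and a range from 231 bp in mrpl-36 to 1569 bp in mrps-30, against a median of 1002 bp for PCGs. Their median of 4 coding exons compares with 5 for PCGs, and mrpl-54 is the only member whose coding sequence lies in 1 exon.

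**Figure D1:**
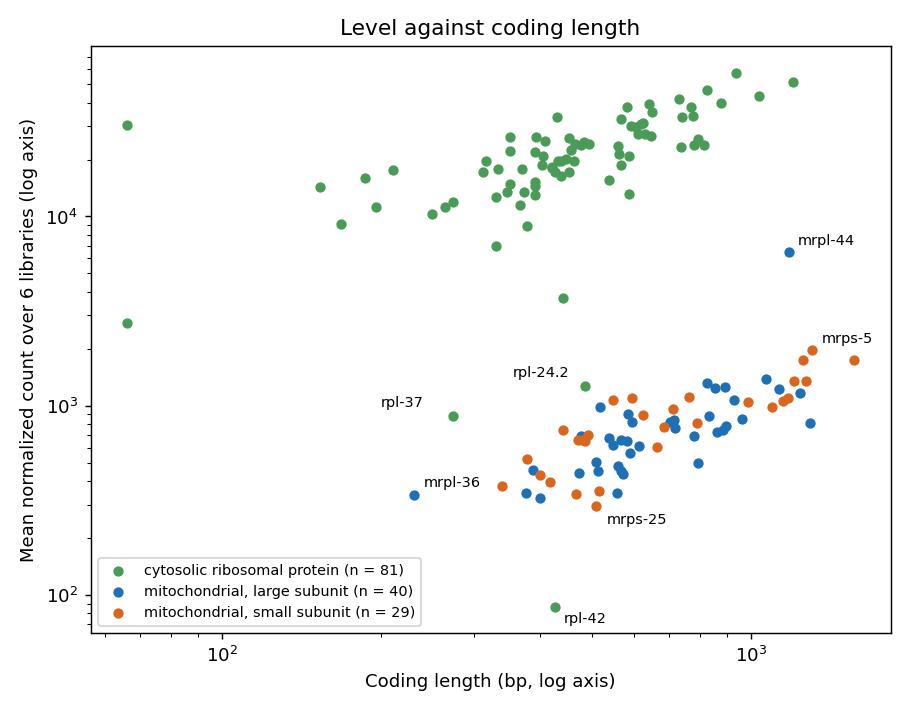
Mean normalized count over 6 libraries against coding length in bp, both on log axes, for 69 mitochondrial (blue, large subunit; orange, small subunit) and 81 cytosolic (green) ribosomal protein genes, 1 point per gene. The mitochondrial genes form a narrow band that rises with length from 339.2 for mrpl-36, with mrpl-44 alone above it at 6482.

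Per kb of coding sequence, the median level of the 69 genes was 1110.3 mean normalized counts, with quartiles of 910.2 and 1387.4. The lowest was mrps-25 at 580.0 and the highest mrpl-44 at 5484, 9.46 times as much. Without mrpl-44 the range ended at 1940 for mrps-18A, which is 3.35 times the level of mrps-25. Within a factor of 2 of their own median lay 68 of the 69 mitochondrial genes (98.6%), 74 of 81 cytosolic ribosomal protein genes (91.4%) and 21.2% of PCGs. The ratio of the 90th to the 10th percentile was 1.92 for the mitochondrial genes, 2.16 for the cytosolic genes and 521 for PCGs. The ratio of the upper to the lower quartile ran the other way between the ribosomal groups, at 1.52 for the mitochondrial and 1.43 for the cytosolic genes, and was 33.8 for PCGs. The standard deviation of log2 levels per kb was 0.49, 1.22 and 3.52 in the same order, and the cytosolic genes included rpl-42 at 203.6 and rpl-41.2 at 460299 per kb. The coding sequence of rpl-41.2 has 66 bp, whereas no cytosolic gene has less than 236 bp of exon. The value of rpl-41.2 per kb, which enters the 1.22, thus depends strongly on the length used.

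**Figure D2:**
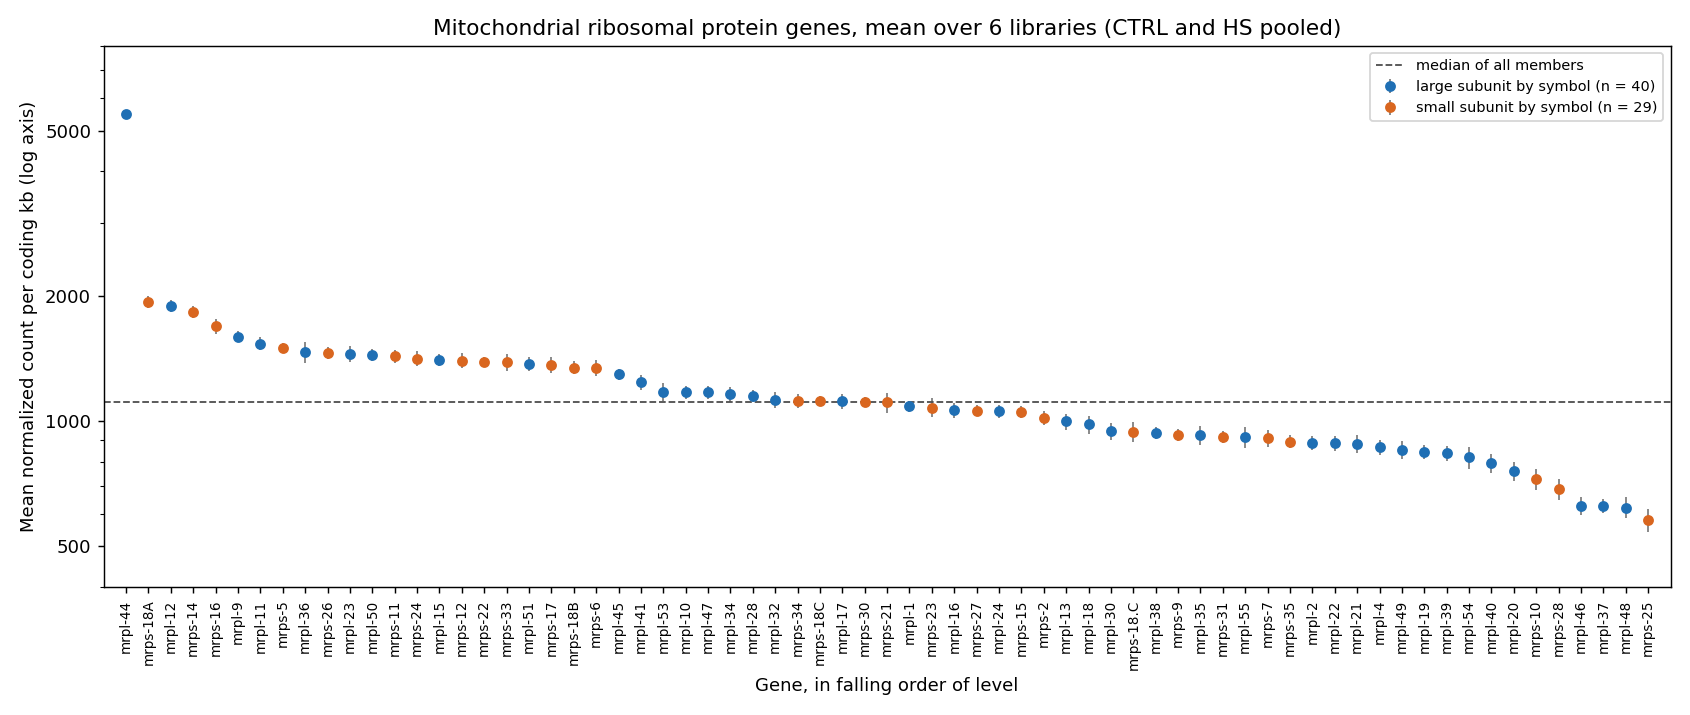
Mean normalized count per kb of coding sequence (log axis) of the 69 genes in falling order, over CTRL and HS libraries pooled, with large subunit genes in blue, small subunit genes in orange and the median of 1110.3 as a dashed line. Bars are 95% bounds of counting error only; all genes but mrpl-44 lie between 580.0 and 1940.

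The highest member, mrpl-44 (WBGene00008514), encodes a large subunit protein whose human counterpart has a ribonuclease III-like fold. It lies on the minus strand of chromosome III from 9084310 to 9089375 (WBcel235). Its mean normalized count of 6482 was 3.3 times that of mrps-5, the next member by count. The annotation places another protein-coding gene, mccc-2 (WBGene00303021), on the same strand from 9086744 to 9089375, wholly inside the span of mrpl-44. By its name, mccc-2 encodes a subunit of methylcrotonyl-CoA carboxylase, an enzyme of leucine breakdown. mccc-2 has no row in the table, so reads from the pair cannot be told apart here. Divided by the coding length of both genes together, 3006 bp, the count of mrpl-44 would be 2156 per kb. The level of mrpl-44 is uncertain as a measure of the ribosomal gene alone.

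Most of the other high members per kb carry the number of a bacterial ribosomal protein, as do 41 of all 69 members. mrps-18A stood at 1940, and its human namesake was located in the large subunit despite its symbol. mrpl-12, at 1897, encodes the stalk protein that contacts elongation factors, and mrpl-11, at 1538, a protein at the base of that stalk. mrps-14 and mrps-16, proteins of the small subunit, had 1836 and 1691. The rest of the 10 highest were mrpl-9 at 1597, above mrpl-11, and mrps-5 at 1502, mrpl-36 at 1468 and mrps-26 at 1461. Counting errors of these genes were at most 3.03% of the mean, so that mrps-5, mrpl-36 and mrps-26 lay within counting error of each other, while the step from mrps-16 to mrps-5 exceeded it. mrps-18A overlaps iglr-2 on the same strand by 419 bp and mrps-16 overlaps ilcr-2 by 175 bp, and iglr-2 had a mean normalized count of 2112 against 1065 for mrps-18A. How shared reads were split between such genes was not tested. Ranks also depend on the length used. Per kb of exon, mrpl-12 (1503) lay above mrps-18A (1314), and mrps-26 had 765.0, below the exon-based median of 886.5. In contrast, mrpl-9, mrps-5 and mrpl-36 stayed above that median.

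mrps-5 (WBGene00008452; chromosome V, 12563487 to 12565801, plus strand) overlaps no other gene and had the highest count among the members after mrpl-44, 1965, at percentile 91.8 of PCGs. With a coding length of 1308 bp, its level per kb took rank 8 of 69. mrps-12, the small subunit protein at the decoding site, stood at 1400 per kb. mrpl-1, which forms the stalk near the exit site of tRNAs, stood at 1088, and mrpl-2, a protein close to the peptidyl transferase centre, at 887.3. mrpl-1 overlaps emc-6 on the same strand by 510 bp, and emc-6 had a mean normalized count of 402.9.

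At the low end, mrps-25 (580.0 per kb) was followed by mrpl-48 (620.4), mrpl-37 (624.7), mrpl-46 (625.5) and mrps-28 (687.6). Counting error does not separate mrpl-48, mrpl-37 and mrpl-46. mrps-10 had 725.8 per kb, mrpl-20 759.1, mrpl-40 792.7, mrpl-54 819.0 and mrpl-39 836.8. In human mitochondrial ribosomes, the counterparts of mrpl-38, mrpl-40, mrpl-46 and mrpl-48 lie together in the central protuberance of the large subunit. These 4 genes had 938.2, 792.7, 625.5 and 620.4 per kb, each below the median of all members. They were grouped after their values were seen, and mrpl-40, mrpl-46 and mrpl-48 were already among the lowest members named above. Their position below the median is therefore no result about this region of the ribosome. No member fell under a mean normalized count of 100. Per kb of exon, the lowest member was mrpl-46 at 389.4, below mrps-25 at 468.8.

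The name mrps-18 is carried by 4 genes. Reads that their sequences might share were not examined. Per kb of coding sequence, mrps-18A had 1940, mrps-18B 1346, mrps-18C 1119.8 and mrps-18.C 944.2. In mean normalized counts, the order differed, with 1354 for mrps-18C, 1065 for mrps-18A, 961.2 for mrps-18B and 393.7 for mrps-18.C. The proteins around the exit of the nascent chain tunnel also differed, with 1453 per kb for mrpl-23, 1056 for mrpl-24 and 885.5 for mrpl-22. mrpl-45, whose human counterpart binds the ribosome to the inner membrane, had 1298.

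Large and small subunit genes had nearly the same level. The median per kb was 1059 for the 40 mrpl- genes, with quartiles of 879.0 and 1257, and 1119.8 for the 29 mrps- genes, with quartiles of 944.2 and 1400, a ratio of 0.946. Both ranges overlapped almost completely, apart from mrpl-44. By symbol, the 10 highest members held 5 genes of each subunit, and the 10 lowest held 7 mrpl- and 3 mrps- genes. Among all 69 members, 40 are mrpl- and 29 mrps- genes, so these tallies lie near the shares of the whole set. With mrps-30 and mrps-18A counted with the large subunit, the ratio of medians was 0.960.

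Members were also divided by number, because mrpl- numbers up to 36 and mrps- numbers up to 21 follow the numbering of bacterial ribosomal proteins, while higher numbers were mostly given to proteins first found in mitochondrial ribosomes. The 41 bacterial-type genes had a median of 1119 per kb and the 28 others a median of 1069.8, a ratio of 1.05 that turned to 0.989 when counts were not divided by length. Bacterial-type genes made up 8 of the 10 highest members per kb and 2 of the 10 lowest, against 41 of all 69 members. These tallies hold only per kb of coding sequence. By undivided count, ranks 1 to 5 went to mrpl-44, mrps-5, mrps-30, mrps-22 and mrpl-45, of which mrps-5 alone is bacterial-type. The median was highest in bacterial-type small subunit genes (1344, n = 17) and lowest in mitochondria-specific large subunit genes (927.3, n = 16). Bacterial-type large subunit genes (1075, n = 24) and mitochondria-specific small subunit genes (1096, n = 12) lay between them. All 4 interquartile ranges overlapped.

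Cytosolic ribosomal protein genes, which encode the ribosomes that make nearly all cellular proteins, were far more abundant. Their median was 44915 mean normalized counts per kb over 81 genes with rpl-, rps- or rla- symbols, 40.5 times that of the mitochondrial genes, and they took 11.4% of the PCG total. A single cytosolic gene, rpl-42 with 203.6 per kb, lay below mrps-18A, and 3 cytosolic genes (rpl-42, rpl-24.2 and rpl-37) lay below mrpl-44.

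Genes for the other proteins of mitochondrial gene expression varied more than the ribosomal proteins, with a standard deviation of log2 levels per kb of 1.37 against 0.49. Of 26 listed factors, 20 were found by symbol, and their median was 463.1 mean normalized counts per kb with a range from 39.1 to 3565. The elongation factor gene tufm-1 was the highest at 3565, followed by gfm-1, the translocase gene, at 1399. dap-3, which encodes another small subunit protein but has a different type of symbol, had 1264 per kb and lay inside the range of the members. hmg-5, which packages mtDNA, had 1163. The tRNA synthetase genes on the list ran from 259.7 for nars-2 to 865.7 for fars-2. The lowest values were those of polg-1, the mtDNA polymerase (127.1), and twnk-1, the mtDNA helicase (39.1). In all, 12 of the 20 factors lay below mrps-25, the lowest ribosomal gene.

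Genes for mitochondrial protein quality control, all 9 of which were found, spanned 189.3 to 7642 per kb. The chaperone genes hsp-60 (7642) and hsp-6 (5849) were the highest, above every member, and both are known to be raised by the mitochondrial unfolded protein response. The transcription factor genes atfs-1 (484.9) and dve-1 (189.3) lay below every member.

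The messages that mitochondrial ribosomes translate varied further, with a standard deviation of 2.95 on the same scale. The 12 protein-coding genes of mtDNA had a median of 3601 mean normalized counts per kb and ran from 62.9 to 25380.4, with COX3, a subunit of cytochrome c oxidase, at 15164 and ND6, a subunit of NADH dehydrogenase, at 276.7. The mtDNA rRNA genes, of 696 and 952 bp, had mean normalized counts of 264291 and 140047 after depletion of ribosomal RNA, which removes an unknown share of them.

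**Figure D3:**
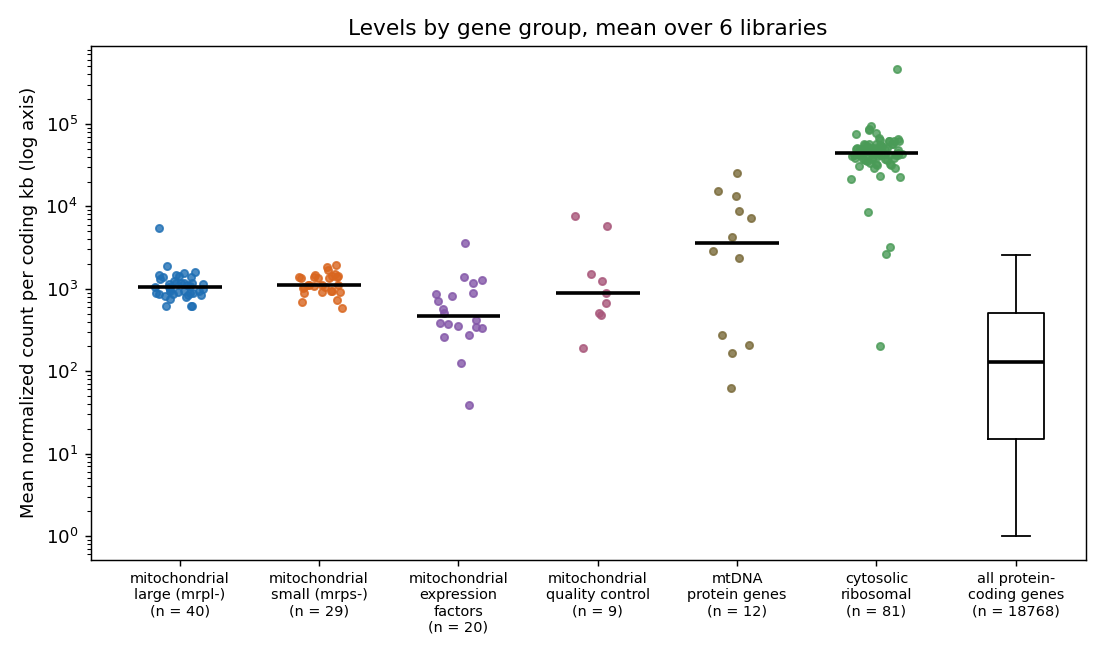
Mean normalized count per kb of coding sequence (log axis) by gene group over 6 pooled libraries, with 1 point per gene and a black line at the median; the box of all PCGs shows quartiles and whiskers at percentiles 5 and 95. The mitochondrial ribosomal groups (medians 1059 and 1119.8) lie close together, between the expression factors (463.1) and the cytosolic ribosomal genes (44915).

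The members are spread over the 5 autosomes, with none on the X chromosome. Chromosome III holds 22 of the 69 (31.9%) against 13.6% of PCGs, chromosome I holds 15 (21.7% against 14.8%), and chromosome V holds 10 (14.5% against 23.8%). The X chromosome carries 13.8% of PCGs.

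In C. elegans, some genes are transcribed together in operons, in which the next gene starts shortly after the end of the previous one on the same strand. Within 1000 bp downstream of another gene on the same strand lay 36 of 69 members (52.2%, 95% Wilson interval 40.6% to 63.5%), 40 of 81 cytosolic ribosomal protein genes (49.4%) and 39.5% of PCGs. Within 2000 bp the shares were 55.1% of members and 54.2% of PCGs. Counting protein-coding neighbours alone, the shares were 50.7% (39.2% to 62.2%) for members, 31.0% for PCGs and 32.1% (22.9% to 42.9%) for cytosolic ribosomal protein genes, and within 2000 bp they were 53.6% of members, 42.5% of PCGs and 30 of 81 cytosolic genes. Gaps of 50 to 150 bp, a band set after the gaps were seen, occurred in 18 members (26.1%, 17.2% to 37.5%), in 7.2% of PCGs and in 6.17% of cytosolic ribosomal protein genes. Overlapping neighbours were counted as within the gap, which for protein-coding neighbours applied to 2 members and 463 PCGs. Neighbours of any type included piRNA (Piwi RNA) genes. The intervals treat members as independent draws, and operon structure itself was not measured. With neighbours on either side, 50 members (72.5%, 61.0% to 81.6%) had a protein-coding gene within 1000 bp on the same strand, against 65.4% of cytosolic ribosomal protein genes (54.6% to 74.9%) and 50.4% of PCGs.

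**Figure D4:**
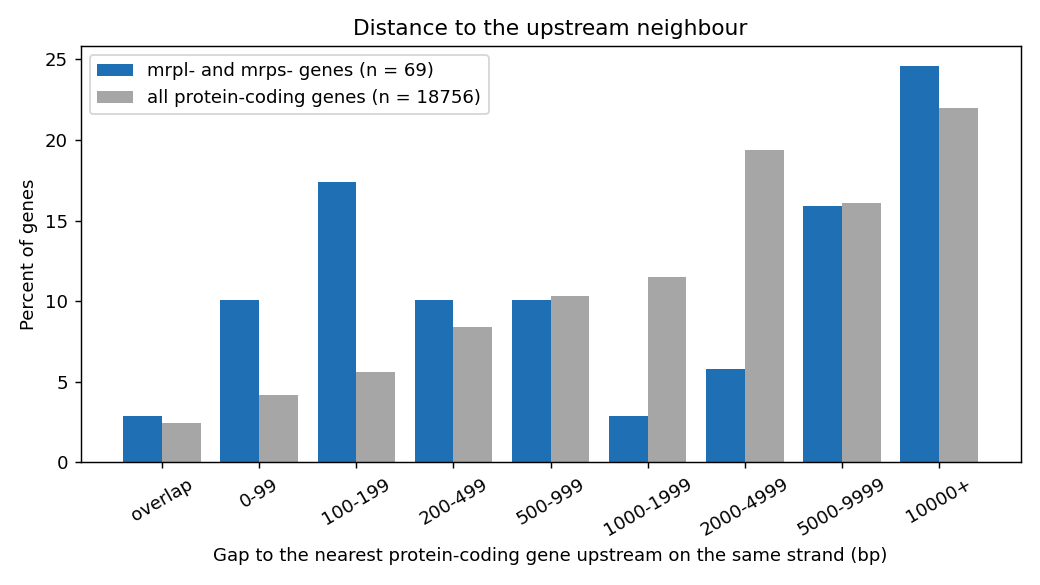
Percent of genes by the gap in bp to the nearest protein-coding gene upstream on the same strand, for 69 mrpl- and mrps- genes (blue) and 18756 PCGs that have such a neighbour (grey). Gaps from 0 to under 100 bp hold 10.1% of the members and 4.19% of PCGs, and the next bin holds 17.4% and 5.6%.

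The following pairs were picked after their values were seen, as examples of small gaps. mrpl-4 starts 105 bp after mrps-2 on chromosome V, and their mean normalized counts were 776.7 and 807.2. Counting genes on the same strand only, mrpl-4 was the only member whose nearest protein-coding gene upstream was another member. mrps-22 starts 105 bp after dap-3 on chromosome II, and the pair had 1744 and 1422. mrpl-23 starts 95 bp after fars-1, a cytosolic tRNA synthetase gene with 3018 against 693.2 for mrpl-23. mrpl-50 starts 25 bp after cct-2, a chaperonin subunit gene with 7428 against 1236 for mrpl-50. mrps-5 starts 103 bp after sel-1, with 1965 and 2103. Among the 35 members with a protein-coding neighbour within 1000 bp upstream on the same strand, the neighbour had the higher count for 18. Spearman's rho between both counts was 0.22, as a description across genes. Counts of these pairs were not divided by length, so differences in length and in level are mixed in them. The share of neighbours with the higher count was not computed for all PCGs. The median level per kb was 1061 for these 35 members and 1136 for the other 34. The paper reports that in HS, transcripts that run on from an upstream gene can add reads to the next gene on the same strand. Whether such reads entered the counts of the members was not tested.

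Altogether 22 members overlap another annotated gene, 15 of them only on the opposite strand, and 15 of the overlaps are shorter than 100 bp. mrps-23 lies entirely within prp-40 on the opposite strand, and prp-40 had a mean normalized count of 1516 against 430.4 for mrps-23. The gene named mrpl-58 in RefSeq is named R02F2.9 in the annotation used here and was not counted as a member. It had a mean normalized count of 475.1 and 959.8 per kb of coding sequence, inside the range of the members.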

How the data were processed

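RNA from 3 CTRL and 3 HS samples of whole N2 worms, independent biological replicates per the study's methods, was depleted of rRNA and sequenced with a stranded kit. The authors trimmed reads with fastq-mcf, aligned them with STAR to genome WS235, counted them with featureCounts on Ensembl release 88 and ran DESeq2; versions and the strand setting of counting are not given in the sources used here. The deposited table holds 1 signal value used here, the authors' mean of normalized counts over all 6 libraries (baseMean), with 0 columns of single libraries. Its 5 other columns hold the authors' own comparison of HS with CTRL (fold change, its error, test statistic, p-value and adjusted p-value) and were not used, so no test was run.

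Gene names came from an identifier table, and positions and coding lengths (longest coding sequence per gene) from Ensembl release 115, WBcel235, in place of the RefSeq protein length that had been planned. Of 31180 identifiers, 30963 were placed. Levels were divided by coding length in kb. Scaling factors were recovered from values under 1, with a script tested on simulated data, and bound counting error only. Named were the 10 highest and 10 lowest members per kb, members under a mean of 100 (0 genes), and mrps-5, mrpl-1, mrpl-2, mrpl-37, mrpl-12 and mrps-12, and further genes were named by role or neighbourhood after values were seen. Members and lists were chosen with earlier results of these data known. The mtDNA genes were taken by chromosome, since 0 of 12 listed names matched. Alternatives changed the length correction, minimum level, average, overlap, class limits and gap. Calculations were done in Python 3.11.15 with numpy 2.4.6, pandas 2.3.3 and scipy 1.17.1, and plots were drawn with matplotlib 3.10.9.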

Additional observations from a re-analysis of the deposited data

How the results depend on the processing

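Of 33 alternatives, 10 moved a value by more than its bound, and 23 did not. Minimum counts of 10 and 100 could not change results among the members, whose lowest count was 295.8. In the comparison with cytosolic genes, whose lowest count was 86.7 for rpl-42, only the minimum of 100 could remove a gene. Outcomes fixed in this way are no sign of stability. The median percentile of the members was 86.8 when ranked among all genes of the table (78.9 among PCGs). Their median of 1110.3 per kb became 745.9 without length correction and 886.5 per kb of exon. The ratio of large to small subunit genes, 0.946, became 0.881 without length correction and 0.877 among members that overlap no other gene. The ratio of bacterial-type to mitochondria-specific genes, 1.05, became 1.19 among members that overlap no other gene and 1.12 with mrpl-47 and mrps-24 counted as bacterial-type, while 0.989 without length correction lay on the other side of 1. The ratio of mitochondrial to cytosolic genes, 0.0247, became 0.0359 without length correction, 0.0276 with geometric means and 0.0228 per kb of exon. The cause of these shifts was not tested. Exon length, the placement of mrpl-47, mrps-24, mrps-30 and mrps-18A, the median without mrpl-44 and the protein-coding neighbour were chosen after seeing the data. An upstream neighbour within 500 bp was found for 29 of 69 members against 26.1% of PCGs, and within 2000 bp for 55.1% against 54.2%, while for protein-coding neighbours alone the shares within 2000 bp were 53.6% and 42.5%. No paired analysis was possible because the table holds no values of single libraries, and for the same reason no library could be left out.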
